A study of Mus musculus with 19 samples.

Results

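Striatal gene expression was compared between control mice challenged with amphetamine at 3 mg/kg and control mice challenged with saline, 5 mice in each group. The 10 libraries were chosen by their labels, out of 19 in the series, and every gene counted was considered. All 10 mice were males aged 4 months of the line D2RCre_floxCas9-EGFP, in which Cre recombinase is driven by the dopamine D2 receptor gene and Cas9 with EGFP depends on Cre. They had received AAV5 syn-mCherry, a virus that makes a red fluorescent protein under a neuronal promoter and carries no guide RNA, in the medial prefrontal cortex. Both groups therefore share the Cre and Cas9 alleles, the operation and the virus. From 3 weeks after the operation they received saline on 5 days, and the challenge followed on day 9. A locomotion period of 30 min is also recorded for each mouse. Tissue was taken 90 min after the amphetamine challenge, and the time for the saline mice is not stated separately. The other 9 mice received a guide RNA against the D2 receptor gene Drd2 in place of mCherry alone (saline knockout, n = 5, and amphetamine knockout, n = 4). They are used below only to set their own response beside that of the control mice.

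Amphetamine reverses the transporters that carry dopamine back into nerve endings and so raises extracellular dopamine, most of all in the striatum. Nearly all striatal neurons are projection neurons. Those of the direct pathway carry D1 receptors, which raise cyclic AMP, and those of the indirect pathway carry D2 receptors, which lower it, together with an adenosine receptor that raises it. Strong dopamine release is known to induce immediate early genes such as Fos and Egr1 in these neurons within an hour, and later neuropeptide genes such as Pdyn.

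The saline mice had between 65578294 and 75756345 counts each and the amphetamine mice between 57003408 and 80857642, so that 1 CPM (a count scaled to the total of its library) stood for 57 to 80.9 counts. Levels below are CPM scaled by the trimmed mean of M values, given in the order of mouse 1 to 5. The defining genes of striatal projection neurons were abundant in each library: Ppp1r1b, the dopamine-regulated phosphatase inhibitor DARPP-32, read 849, 866, 846, 629 and 764 CPM in saline mice and 1119.7, 955, 1035, 1204 and 1240.2 in amphetamine mice. Saline control 5 and amphetamine control 3 lay farthest out on the first 2 principal components of the 10 libraries, which held 24.2% and 19.8% of the variance. The libraries also differed in genes of tissue that borders the striatum. Otp, a transcription factor of hypothalamic neurons, read 0.151, 0.112, 3.75, 9.33 and 3.32 CPM in saline mice and 0.952, 0.127, 0.0459, 0.502 and 0.113 in amphetamine mice, so 3 saline libraries held over 1 CPM and no amphetamine library did. The summed level of 13 hypothalamic markers ran from 64.9 to 260 CPM (median 119) in saline mice and from 48.2 to 91.7 (median 61.7) in amphetamine mice. Summed markers of pallidal and septal neurons ran from 311 to 462 CPM in saline and from 191 to 337 in amphetamine mice. Cortical projection neuron markers went the other way, from 692 to 1236 CPM in saline and from 1165 to 1787 in amphetamine mice. How far the tissue taken at dissection contributes to the differences between the groups was not tested.

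**Figure D1:**
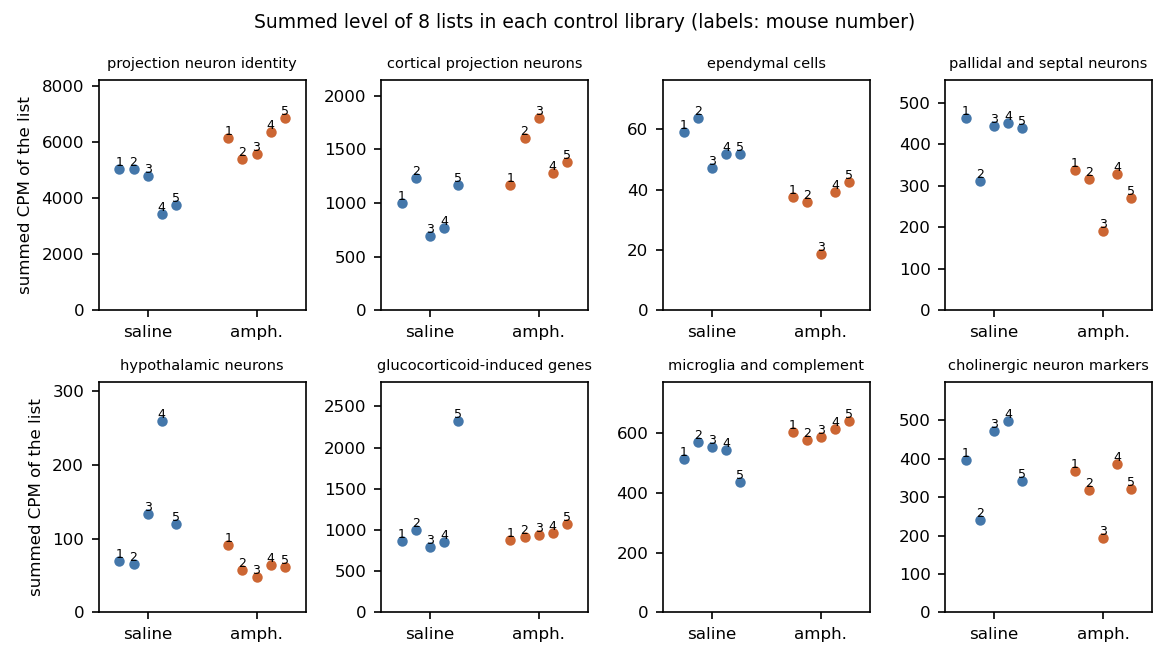
Summed CPM (y axis, from 0) of the members of 8 gene lists in each control library, with saline mice on the left, amphetamine mice on the right and the mouse number beside each point. Projection neuron identity, ependymal and microglial sums do not overlap between the groups. Hypothalamic markers are highest in saline mouse 4, and glucocorticoid-induced genes are highest in saline mouse 5.

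A single gene, Plcd4, fell after amphetamine in the test over all genes and all 19 libraries. It encodes phospholipase C delta 4, an enzyme that splits a membrane phosphoinositide into inositol trisphosphate and diacylglycerol, and lies at chromosome 1, 74582047 to 74606953 in GRCm39 (ENSMUSG00000026173.16). Its level was 21.2, 23.7, 21.5, 22.1 and 20.6 CPM in the saline mice and 14.01, 13.4, 13.8, 15.4 and 13.1 in the amphetamine mice. Every amphetamine mouse lay below every saline mouse, with group means of 21.8 ± 1.18 and 13.9 ± 0.884 CPM (SD, n = 5 each). The log2 fold change was -0.65 ± 0.09 (SE), with an adjusted p of 0.0099 in edgeR's quasi-likelihood test fitted on all 19 libraries with Benjamini-Hochberg adjustment. Among 21513 genes tested, 0.00465% were called at an adjusted p under 0.05, and 11.8% had an unadjusted p under 0.05 (1051 higher and 1495 lower). By direction 4.89% were higher and 6.95% lower at that p, and 48.4% of all genes had a fold change above 0. The call was lost, with adjusted p from 0.0519 to 0.0793, when amphetamine mouse 1, 2, 3 or 5 was left out. It was also lost without saline control 5 and amphetamine control 3 together (adjusted p 0.053), without the 3 Otp libraries (0.240), with the hypothalamic score in the model (0.054) and with 3 scores of neighbouring tissue in the model (0.999, edgeR). The log2 fold change in these fits ran from -0.69 without the Otp libraries to -0.54 with the 3 tissue scores. DESeq2 called 214 genes on the same counts, 77 higher and 137 lower.

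The promoter of Plcd4 is shown because this is the gene that was called. It is 300 bases from RefSeq in the earlier build GRCm38 (chr1:74542639-74542938, plus strand, 5′ to 3′, the first of the gene's 2 listed starts), and none of the 3 motifs searched below lies in it, hence no capitals.
Plcd4: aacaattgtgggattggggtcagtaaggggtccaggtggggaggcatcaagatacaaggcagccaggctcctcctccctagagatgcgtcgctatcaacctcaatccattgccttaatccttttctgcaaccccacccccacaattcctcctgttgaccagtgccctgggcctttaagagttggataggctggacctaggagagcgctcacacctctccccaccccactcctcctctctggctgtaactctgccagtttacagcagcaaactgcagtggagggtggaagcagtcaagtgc

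The amphetamine and saline groups were also compared with a model fitted on the 10 control libraries alone, in which the spread comes only from these mice. It called 75 of 20076 genes (0.374%) at an adjusted p under 0.05 in edgeR, 48 higher (0.239%) and 27 lower (0.134%) in amphetamine mice. In each of the 75 genes the 2 groups of 5 did not overlap. Over all genes tested, groups did not overlap in 2.22% with amphetamine higher and 1.68% with amphetamine lower. The 75 were selected by a test on these same mice, so their lack of overlap is no further support. The authors' deposited table of this comparison calls 795 genes at an adjusted p under 0.05 (420 higher, 2.23%, and 375 lower, 1.99% of its genes), and 74 of the 75 are among them. The number called depended on single mice: it ran from 4, without amphetamine mouse 5, to 392, without saline mouse 2. It was 257 without saline mouse 5, 40 without saline mouse 1, and from 4 to 9 without any other single mouse. Without the 3 saline libraries that held Otp it was 5, and with 3 scores of neighbouring tissue as covariates it was 0 (1113 genes then had an unadjusted p under 0.05). All 75 genes kept their direction in each of these fits. The words rose and fell below, apart from Plcd4, refer to this fit on 10 libraries. Log2 fold changes, their SE and unadjusted p below are from the fit on 19 libraries unless another fit is named.

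**Figure D2:**
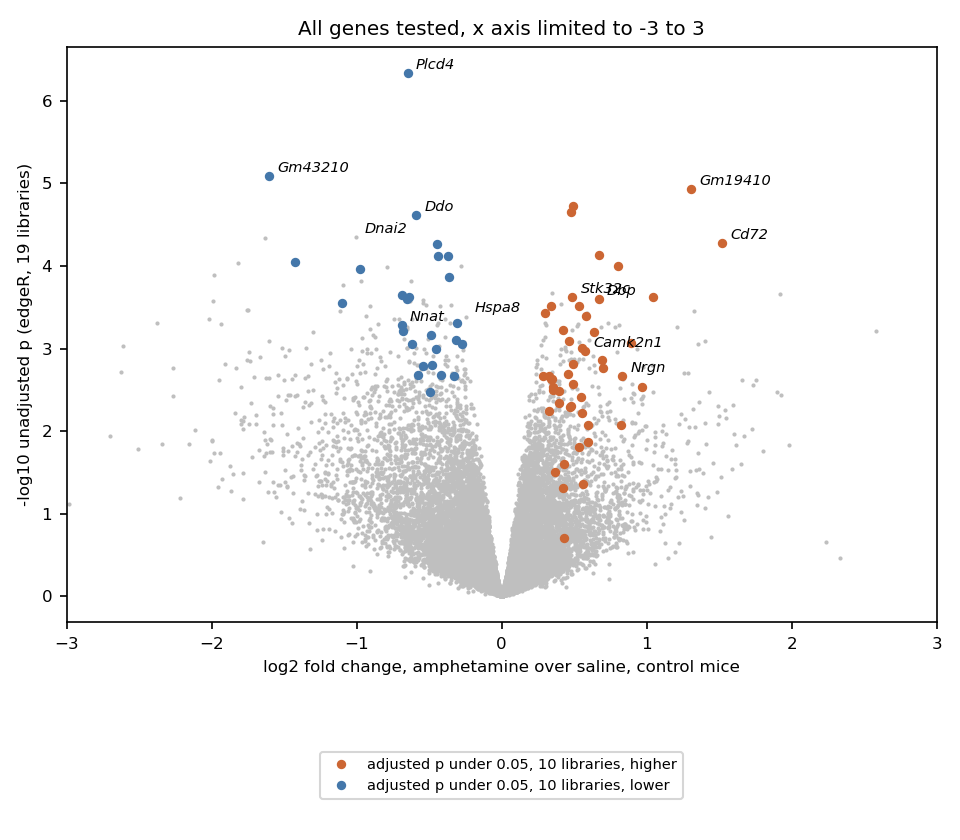
Log2 fold change of amphetamine over saline in control mice (x axis, limited to -3 to 3) against -log10 of the unadjusted p from the fit on 19 libraries (y axis), 1 grey point per gene. Coloured points are the 48 higher and 27 lower genes called at an adjusted p under 0.05 in the fit on the 10 control libraries, and Plcd4 is the highest point.

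The genes that rose included kinases, phosphatase subunits and calcium-binding proteins of neurons, and apart from Stk32c and Nrgn the next ones named were picked from the 75 after their values were seen. Stk32c, a little studied serine/threonine kinase, had the smallest p of this fit, with 129.7, 133, 125, 120.1 and 121 CPM in saline mice and 180.4, 180.2, 172, 173 and 176 in amphetamine mice. Its log2 fold change was 0.48 ± 0.05 on 10 libraries (adjusted p 0.00358) and 0.49 ± 0.11 on 19 (adjusted p 0.148, edgeR). Camk2n1, an inhibitor of calcium/calmodulin-dependent kinase II, was among the most abundant, at 1009.8, 1059, 889.7, 892 and 981 CPM in saline and 1323, 1409, 1537, 1400.4 and 1515 in amphetamine mice. All 5 amphetamine mice lay above all 5 saline mice. Ppp3ca, a catalytic subunit of the calcium-activated phosphatase calcineurin, read 1537, 1485, 1392, 1048 and 1307 CPM after saline and 2042, 1794, 1777, 1914 and 2003 after amphetamine (log2 fold change 0.49 ± 0.13). Saline mouse 4 was the lowest of the 10. Nrgn, neurogranin, which binds calmodulin in dendrites of projection neurons of striatum and cortex, read 329, 366, 224, 253 and 282 CPM after saline and 475, 506, 494, 548 and 564 after amphetamine (log2 fold change 0.83 ± 0.23). It is also 1 of the 14 cortical markers above, of which 13 had a fold change above 0 (48.4% of all genes did). Others that rose were Camk4, a calcium/calmodulin-dependent kinase (log2 fold change 0.42), Arpp19, an inhibitor of protein phosphatase 2A (0.54), Ppp1ca, a catalytic subunit of protein phosphatase 1 (0.33), Slc8a2, a sodium/calcium exchanger (0.46), Rgs7bp, which anchors RGS proteins at the membrane (0.55), and Adrb1, the beta 1 adrenergic receptor (0.46). With the 3 tissue scores as covariates none of them passed the test, and Nrgn is itself part of the cortical score.

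Among the named genes with the smallest p in the fit on 19 libraries, Rassf3, a member of the Ras association domain family, read 24.1, 22.1, 22.1, 21.3 and 22.5 CPM after saline and 32.7, 30.9, 32.5, 30.02 and 30.6 after amphetamine. Susd1, a sushi domain protein, read 9.76, 10.6, 9.70, 8.74 and 9.63 CPM and 12.8, 12.8, 14.7, 13.8 and 13.9. Cdh9, a cadherin that joins neurons, read 21.9, 21.2, 18.04, 14.98 and 17.5 CPM and 28.4, 27.4, 30.3, 30.8 and 32.5. The groups did not overlap in any of these 3, and their log2 fold changes were 0.48 ± 0.09, 0.49 ± 0.09 and 0.67 ± 0.14 (adjusted p 0.0868, 0.0868 and 0.121 on 19 libraries, 0.00863, 0.035 and 0.031 on 10, edgeR). Cd72, a receptor of B cells that microglia also express, rose at a low level, with 0.410 to 0.601 CPM after saline and 1.03 to 2.17 after amphetamine (log2 fold change 1.52 ± 0.30). Rps6ka4, the kinase MSK2 that phosphorylates CREB and histone H3, read 38.7, 37.1, 37.6, 34.9 and 35.1 CPM after saline and 49.7, 46.1, 44.8, 46.97 and 44.4 after amphetamine. B3gnt2, a glycosyltransferase, ran from 35.7 to 48.6 CPM after saline and from 54.7 to 73.7 after amphetamine. For Coch, a secreted matrix protein known from the inner ear, the ranges were 13.7 to 21.5 and 26.6 to 37.9 CPM, and for Myo5c, an unconventional myosin, 0.915 to 1.65 and 1.78 to 2.87 CPM. Rps6ka4, B3gnt2, Coch and Myo5c all rose. Capn1, a calcium-activated protease (13.5 to 16.7 CPM after saline, 17.4 to 20.6 after amphetamine), and Mir124-2hg, the host transcript of a neuronal microRNA (56.8 to 73.7 and 74.9 to 95.8 CPM), had groups that did not overlap but did not pass the test on either set of libraries. E2f1, a cell cycle transcription factor, and AI593442, a brain transcript, complete the 14 with the smallest p, and their groups overlapped. Gm19410, known only by a predicted name, rose, with 5.08 to 11.7 CPM after saline and 13.5 to 22.4 after amphetamine.

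The genes that fell after amphetamine beside Plcd4 included enzymes, membrane proteins and genes of cilia. Ddo, D-aspartate oxidase, read 14.6, 17.1, 15.5, 15.7 and 12.3 CPM after saline and 10.7, 10.4, 8.45, 10.9 and 9.55 after amphetamine, with every amphetamine mouse below every saline mouse (log2 fold change -0.59 ± 0.11, adjusted p 0.0868 on 19 libraries and 0.0372 on 10, edgeR). Mtss1, which shapes membranes and actin in dendrites, read 48.8, 44.8, 51.6, 54.4 and 56.2 CPM after saline and 36.8, 39.5, 33.2, 41.8 and 37.8 after amphetamine. Zfp423, a zinc finger transcription factor, read 23.4, 22.4, 26.6, 30.3 and 29.7 CPM and 15.9, 15.99, 14.9, 19.96 and 18.2. Both fell on 10 libraries, with adjusted p of 0.0404 and 0.035 (edgeR). Agtrap, which binds the angiotensin II receptor, read 15.2 to 19.6 CPM after saline and 11.99 to 13.96 after amphetamine. Kank1, an actin regulator, read 25.5 to 29.1 and 20.2 to 22.1 CPM, and Cyp2j9, a brain enzyme of the cytochrome family, 27.8 to 50.7 and 21.9 to 24.6 CPM. These genes fell too, and in Cyp2j9 the highest value was saline mouse 5. Chosen after their values were seen, Pygm and Pygb, the muscle and brain forms of glycogen phosphorylase, which releases glucose from glycogen, both fell (log2 fold changes -0.49 ± 0.15 and -0.27 ± 0.07), while Ppp1r3g, a subunit that brings protein phosphatase 1 to glycogen, rose (0.70 ± 0.19). Pygb was the more abundant in counts, at 251 to 274 CPM after saline and 204 to 224 after amphetamine. Nnat, neuronatin, an imprinted membrane protein picked in the same way, fell, with 251 to 381 CPM after saline and 164 to 230.1 after amphetamine, with its highest value in saline mouse 4.

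Tekt1, a structural protein of cilia and 1 of the ependymal markers, fell on 10 libraries, with 2.50 to 3.17 CPM after saline and 0.978 to 1.96 after amphetamine. Dnai2, a dynein chain of motile cilia, read 5.24, 9.48, 4.59, 5.03 and 6.17 CPM after saline and 3.26, 2.82, 2.16, 3.92 and 3.06 after amphetamine, with groups that did not overlap and an adjusted p of 0.117 on 19 libraries (edgeR). Of 12 ependymal markers tested, 0 had a fold change above 0, 9 were lower at an unadjusted p under 0.05 (6.95% of all genes were), and the median log2 fold change was -0.74 against -0.01 over all genes. Their sum ran from 47.1 to 63.7 CPM after saline and from 18.8 to 42.6 after amphetamine, and amphetamine mouse 3 was the lowest. With the tissue scores in the model, of which the ependymal score is 1, the median was -0.01. In bulk tissue fewer cells of a type and less RNA per cell cannot be told apart. Dlk1, an imprinted Notch-like protein of septal and hypothalamic neurons, read 86.8, 63.2, 111, 116 and 106 CPM after saline and 62.8, 47.5, 28.1, 60.3 and 48.2 after amphetamine, and 6 of 9 pallidal and septal markers were lower at an unadjusted p under 0.05 (median log2 fold change -0.60). That median was 0.019 with the 3 tissue scores in the model, of which the pallidal and septal score is 1. Fam167a and Aldh4a1, a mitochondrial proline-breakdown enzyme, had groups that did not overlap and did not pass the test on either set of libraries.

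**Figure D3:**
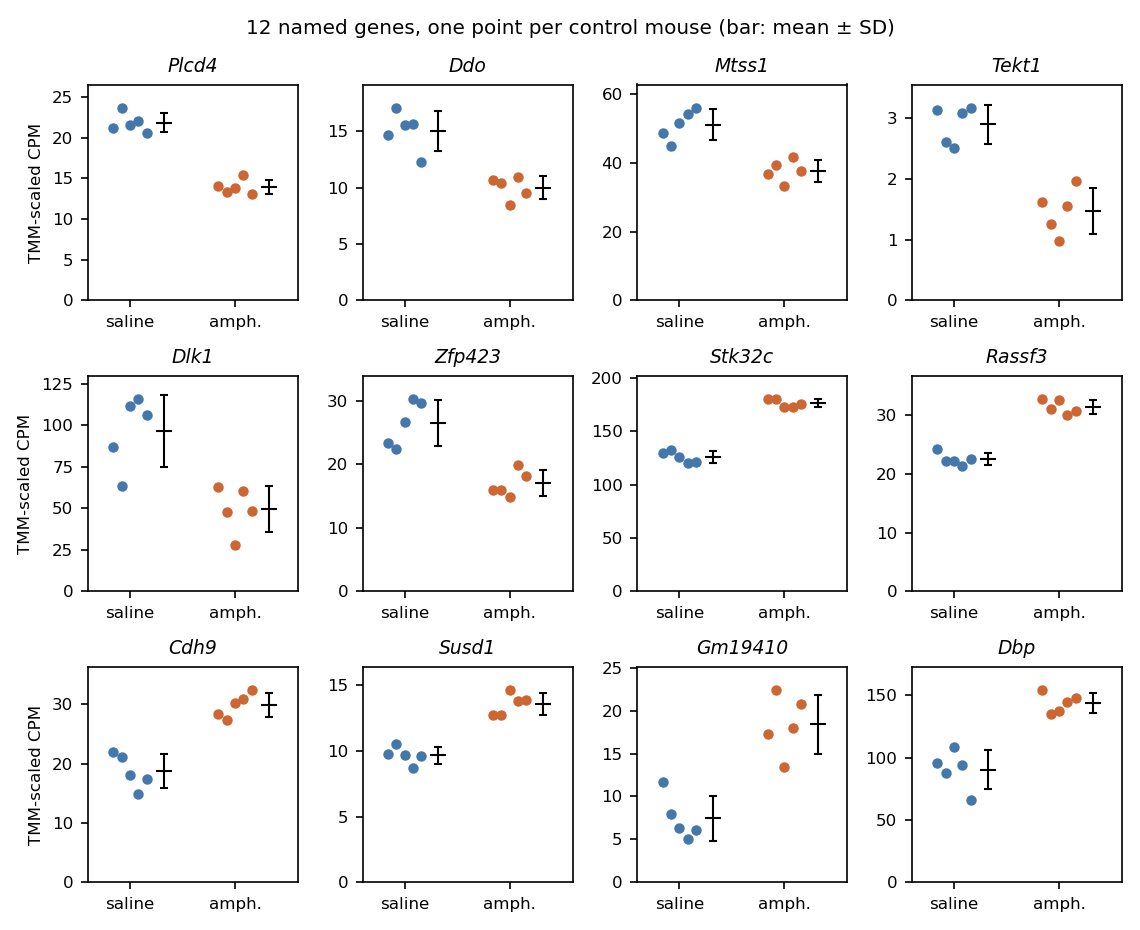
TMM-scaled CPM (y axes, from 0) of 12 named genes in 5 saline and 5 amphetamine control mice, 1 point per mouse in the order of mouse 1 to 5, with the mean and SD in black. In each panel the amphetamine mice lie all below (Plcd4, Ddo, Mtss1, Tekt1, Dlk1, Zfp423) or all above the saline mice.

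Genes of dopamine receptors and their transduction did not pass the test across all genes on either set of libraries, but most leaned the same way. Of 18 tested, 15 had a fold change above 0 (48.4% of all genes did), and the median log2 fold change was 0.31. At an unadjusted p under 0.05, 5 were higher (4.89% of all genes were) and 0 lower. Drd1, the D1 receptor, read 172, 164, 178, 117 and 122 CPM after saline and 217, 179, 189, 214 and 233 after amphetamine (log2 fold change 0.45 ± 0.23). Drd2, the D2 receptor, read 154, 145, 144, 95.6 and 85.3 CPM and 182, 151, 141, 190.2 and 199.98 (0.47 ± 0.26). Saline mice 4 and 5 were the lowest of the 10 for both receptors, and amphetamine mice 2 and 3 lay close to saline mice 1 to 3. Adora2a, the adenosine receptor of the indirect pathway, had its lowest value in saline mouse 5, with 168, 157, 171, 121 and 74.5 CPM after saline and 217, 173, 190.01, 220.1 and 226 after amphetamine. Rgs4, which shortens G protein signals, had groups that did not overlap, at 353, 378, 284, 254 and 261 CPM after saline and 503, 415, 408, 461 and 500.2 after amphetamine (log2 fold change 0.58 ± 0.18, adjusted p 0.218 on 19 libraries and 0.0522 on 10, edgeR). Prkcb, a protein kinase C of projection neurons, read 334 to 424 CPM after saline and 468 to 510.4 after amphetamine. In the authors' deposited FPKM, which are scaled by gene length, the mean saline levels of these genes were ordered Ppp1r1b (395 FPKM), Adora2a (53.4), Drd2 (49.1) and Drd1 (42.2), and no test was made between genes.

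All 16 markers of projection neuron identity tested had a fold change above 0, with a median of 0.46 on the log2 scale, and 9 were higher at an unadjusted p under 0.05. Over all genes 48.4% were above 0 and 4.89% were higher at that p. None of the 16 passed the test across all genes in either fit. The sum of these markers ran from 3427 to 5040 CPM after saline, with mice 4 and 5 lowest, and from 5373 to 6839 after amphetamine. Actn2, an actin crosslinker of spines, read 47.1, 43.6, 38.6, 23.7 and 32.1 CPM and 59.9, 50.3, 47.8, 60.7 and 64.3. Bcl11b, a transcription factor of these neurons, read 195, 192, 164, 131 and 145 CPM after saline and 225, 218, 215, 232 and 242 after amphetamine. Gpr52, a receptor of the indirect pathway, read 35.7, 36.7, 34.4, 20.1 and 16.5 CPM and 44.7, 40.2, 42.1, 39.8 and 48.2, and Ebf1, a transcription factor of the direct pathway, 8.65 to 9.86 CPM and 9.55 to 12.9. In Gpr52 saline mice 4 and 5 stood well below the other 3. The medians of 9 direct and 8 indirect pathway markers were 0.25 and 0.30. Fold changes were above 0 in 6 of the 9 and 7 of the 8. At an unadjusted p under 0.05, 1 direct and 2 indirect markers were higher. The summed hypothalamic markers were highest in saline mouse 4, which was also the lowest for projection neuron markers. With the hypothalamic score in the model, 5 of 128 genes checked turned direction, none of them a marker named in this paragraph. A kept direction does not show how much of a difference remains. In that fit 1200 genes had an unadjusted p under 0.05 (edgeR), against 2546 without the score. How far hypothalamic tissue contributed to these differences was not tested.

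**Figure D4:**
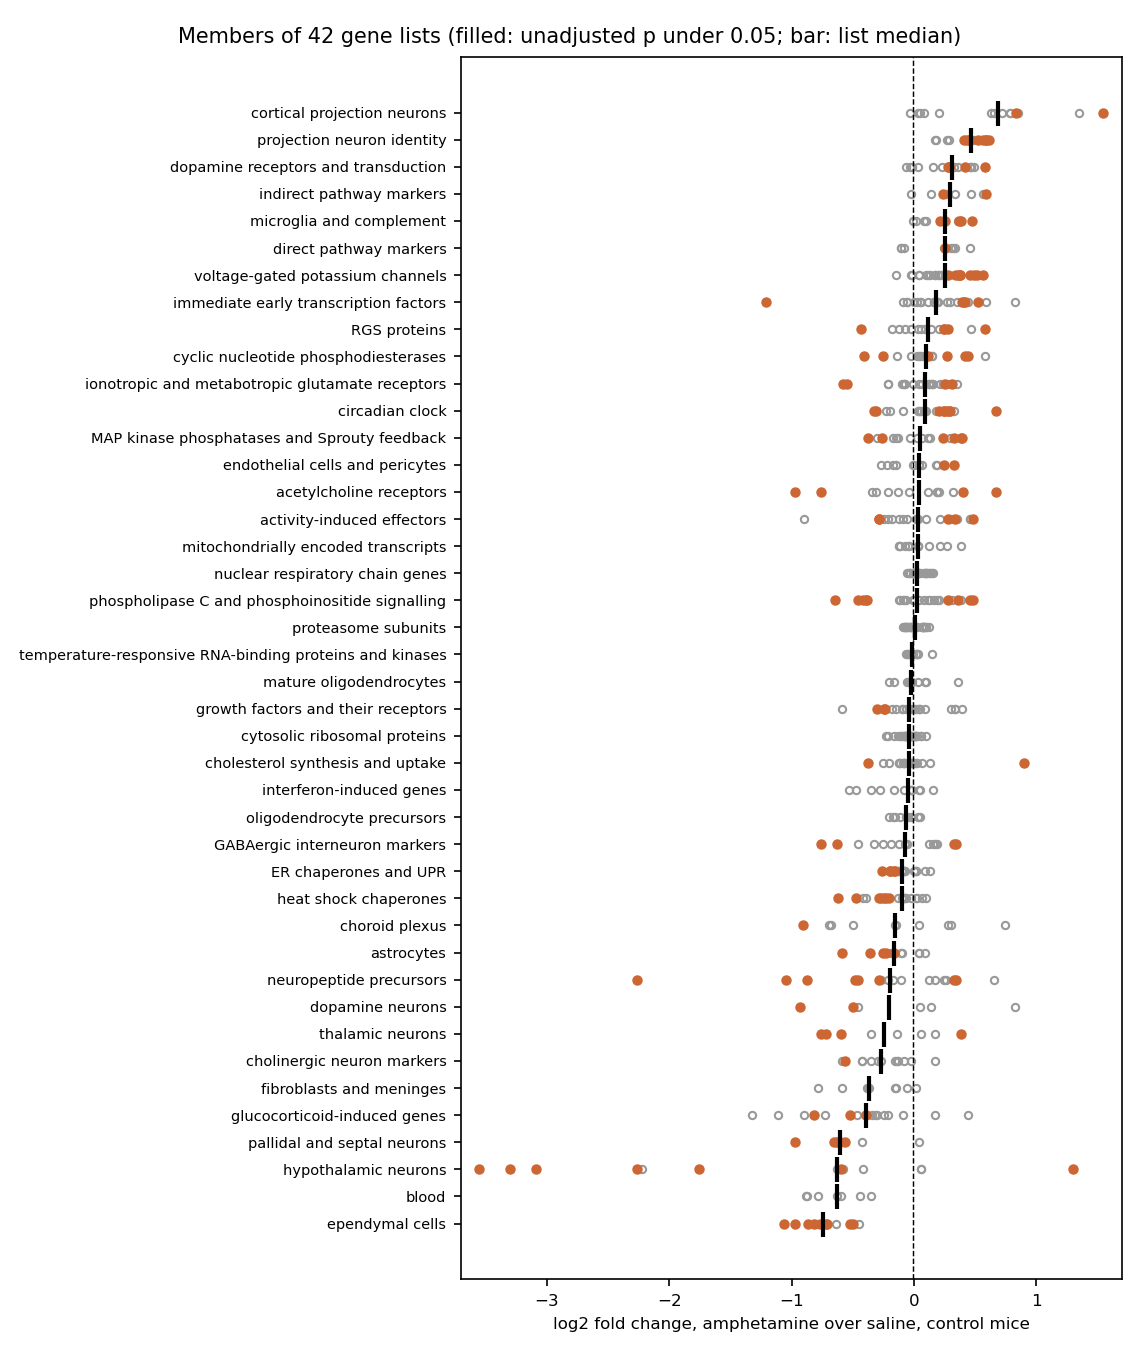
Log2 fold change of amphetamine over saline in control mice (x axis) for the tested members of 42 gene lists (rows, ordered by median). Filled points had an unadjusted p under 0.05, black bars are list medians and the dashed line is the median of all genes tested, -0.01; the medians of ependymal and projection neuron identity genes, -0.74 and 0.46, lie toward the 2 ends.

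Immediate early genes showed no call in either fit. Of 24 transcription factors of this class, 19 had a fold change above 0 (48.4% of all genes did). At an unadjusted p under 0.05, 4 were higher and 1 lower (4.89% and 6.95% of all genes were). The median log2 fold change was 0.18. It was 0.40 without saline mouse 2 and -0.10 with the 3 tissue scores as covariates. Fos read 40.5, 56.6, 40.5, 39.6 and 31.1 CPM after saline and 34.997, 43.9, 42.4, 53.2 and 37.9 after amphetamine, so the groups overlapped almost wholly (log2 fold change 0.03 ± 0.17). Egr1 read 159, 200.5, 134, 119.5 and 111 CPM and 122, 167, 182, 200.04 and 203 (0.27 ± 0.20). Npas4, induced by calcium entry, read 22.03, 32.3, 21.3, 12.6 and 14.05 CPM after saline and 14.6, 20.96, 22.8, 22.9 and 20.8 after amphetamine, and Arc, a synaptic immediate early gene, 115, 166, 99.2, 74.5 and 47.96 CPM and 87.6, 117, 117, 145 and 115. Saline mouse 2 held the highest value of all 10 mice for Fos, Npas4 and Arc. The directions of Fos, Egr1, Npas4 and Arc each turned under at least 1 other setting, with the tissue scores as covariates for Fos, Egr1 and Arc and without saline mouse 2 for Npas4. Junb read 70.6, 85.1, 71.7, 61.7 and 55.7 CPM and 80.4, 88.1, 94.4, 106 and 88.04 (log2 fold change 0.41 ± 0.15), and Ier5 45.7, 48.2, 43.8, 32.7 and 33.3 CPM and 60.5, 57.7, 54.5, 49.8 and 49.7 (0.42 ± 0.16), the latter with groups that did not overlap. Btg2, an antiproliferative gene induced with this class, had the smallest p of the list, with 35.7, 40.01, 26.996, 29.2 and 29.97 CPM after saline and 41.2, 47.5, 55.6, 48.8 and 39.7 after amphetamine (log2 fold change 0.52 ± 0.13, adjusted p 0.149, edgeR).

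The promoter of Btg2 is shown because it holds a cAMP response element (TGACGTCA, in capitals; GRCm38, chr1:134079106-134079405, minus strand), the motif bound by CREB downstream of D1 receptors. Promoters of 2 of the 20 listed genes found in RefSeq's table, Btg2 and Maff, hold this motif, which is the same on both strands, against 2.03% of 27025 genes with a 300-base promoter. A match is a description of the letters.
Btg2: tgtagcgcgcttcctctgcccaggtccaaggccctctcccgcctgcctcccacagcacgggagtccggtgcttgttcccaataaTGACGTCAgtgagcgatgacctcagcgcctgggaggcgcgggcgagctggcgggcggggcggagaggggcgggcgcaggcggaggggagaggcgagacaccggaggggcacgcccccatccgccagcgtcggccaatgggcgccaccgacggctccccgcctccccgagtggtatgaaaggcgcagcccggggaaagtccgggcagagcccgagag

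Among 21 activity-induced effectors, 12 had a fold change above 0 (48.4% of all genes did). Their median was 0.03 (-0.17 with the tissue scores as covariates). Plk2, a kinase of active synapses, read 177, 193, 157, 125 and 201 CPM after saline and 226, 225, 250.2, 244 and 249 after amphetamine, with no overlap (log2 fold change 0.49 ± 0.12, adjusted p 0.155, edgeR). Homer1, a scaffold of glutamate receptors, read 106 to 178 CPM and 177 to 189, and Sik1, a kinase that restrains CREB coactivators, 32.7 to 35.6 CPM and 25.2 to 36.03. Of 16 MAP kinase phosphatases and Sprouty-type feedback genes, 4 were higher and 2 lower at an unadjusted p under 0.05, where 4.89% of all genes were higher and 6.95% lower. Spry2 read 50.3, 56.9, 44.7, 42.96 and 42.4 CPM after saline and 53.4, 58.7, 64.7, 65.6 and 69.3 after amphetamine, and Dusp1 30.9, 37.1, 27.6, 28.2 and 33.1 CPM and 34.6, 39.2, 43.2, 42.8 and 37.1.

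Neuropeptide genes of projection neurons overlapped between the groups. Penk, enkephalin of the indirect pathway, read 654, 692, 734, 503 and 681 CPM after saline and 917, 657, 717, 810.3 and 805 after amphetamine (log2 fold change 0.26 ± 0.23). Tac1, substance P of the direct pathway, read 215, 219.6, 261, 185 and 254 CPM and 325, 212, 267, 255 and 284 (0.24 ± 0.24), and Pdyn, dynorphin, 134, 165, 154, 105 and 131 CPM and 148, 104, 126, 135 and 130.2 (-0.10 ± 0.21). Over 18 neuropeptide precursors 2 were higher and 6 lower at an unadjusted p under 0.05 (4.89% and 6.95% of all genes were). Their median was -0.19. Sst, somatostatin of striatal interneurons, was higher without overlap, at 131, 146, 126, 137 and 133 CPM after saline and 195, 166, 170.3, 159 and 156 after amphetamine (log2 fold change 0.33 ± 0.10). It is in a list of 15 GABAergic interneuron markers, of which 6 had a fold change above 0 and 9 below. The median of that list was -0.07, with 2 higher and 2 lower at an unadjusted p under 0.05. Gal, galanin, which is also a hypothalamic gene, read 3.99, 1.36, 12.9, 16.6 and 9.85 CPM after saline and 3.77, 1.24, 0.489, 2.52 and 1.33 after amphetamine, with the highest values in the 3 saline libraries that held Otp. Scg2, secretogranin II, read 457, 558, 547, 599.6 and 663 CPM and 485, 382, 396, 408 and 391.

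Chaperone genes leaned lower after amphetamine, none past the test across all genes in control mice. The 21 heat shock chaperones were mostly cytosolic, with the mitochondrial Hspd1 and Hspe1 among them. Of these 21, 4 had a fold change above 0 (48.4% of all genes did), with a median of -0.10. At an unadjusted p under 0.05, 7 were lower and 0 higher (6.95% and 4.89% of all genes were). Hspa8, the constitutive HSC70, read 1568, 1548, 1530.3, 1592 and 1436 CPM after saline and 1234, 1345, 1289.8, 1327 and 1272 after amphetamine, with every amphetamine mouse below every saline mouse (log2 fold change -0.25 ± 0.06, adjusted p 0.149, edgeR). Hspa1a, an inducible HSP70, read 5.83, 6.45, 6.93, 7.11 and 5.52 CPM and 3.75, 4.72, 4.75, 4.22 and 3.29 (-0.62 ± 0.18). Hspa1b is nearly identical to it, and how reads that match both genes were counted is not stated. Dnajb1, an HSP40, read 65.03, 67.7, 72.3, 71.3 and 62.9 CPM after saline and 55.1, 57.001, 53.1, 63.8 and 52.8 after amphetamine. Among 22 chaperones of the endoplasmic reticulum and genes of the unfolded protein response 5 were lower and 0 higher at an unadjusted p under 0.05. Over all genes 6.95% were lower and 4.89% higher at that p. Hspa5, the chaperone BiP, read 309, 305, 296, 299 and 299 CPM and 282, 253, 242, 245 and 238 (log2 fold change -0.26 ± 0.07), and Calr, calreticulin, 295, 323, 280.1, 291 and 254 CPM and 257, 254, 242, 258 and 248. Of 31 proteasome subunits and 12 temperature-responsive RNA-binding proteins and kinases, 0 had an unadjusted p under 0.05 in either direction.

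The knockout mice gave a second set of animals for these chaperones, and other lists are set beside them further below. Hspa8 read 1756, 1678, 1653, 1691 and 1672 CPM in 5 saline and 1335, 1306, 1375 and 1253 in 4 amphetamine knockout mice, again with no overlap (log2 fold change -0.36 ± 0.06, adjusted p 0.0648, edgeR). Hspa5 read 339, 332, 349.9, 334 and 293 CPM and 257, 273, 271 and 235 there (log2 fold change -0.35 ± 0.07, adjusted p 0.117). Over the 21 heat shock genes the median in knockout mice was -0.34. The difference of the responses between genotypes had a p of 0.201 for Hspa8 and 0.367 for Hspa5 before adjustment (edgeR).

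The promoter of Hspa1a is shown because 11 of 18 listed heat shock genes with a RefSeq promoter hold a heat shock element (GAANNTTC, in capitals below, the same on both strands), the motif of heat shock factor, against 9.04% of all 27025 genes. The mitochondrial Hspd1 and Hspe1 are 2 of these 11. The window is chr17:34972107-34972406 of GRCm38, minus strand.
Hspa1a: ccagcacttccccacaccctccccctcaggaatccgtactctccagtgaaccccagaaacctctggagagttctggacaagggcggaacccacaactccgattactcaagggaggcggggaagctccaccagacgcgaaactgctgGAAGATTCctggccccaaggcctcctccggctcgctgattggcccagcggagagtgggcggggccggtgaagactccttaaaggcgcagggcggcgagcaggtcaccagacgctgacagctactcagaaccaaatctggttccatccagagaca

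One clock gene rose. Dbp, a transcription factor driven directly by CLOCK and BMAL1, rose on 10 libraries, with 95.7, 87.4, 109, 94.5 and 65.97 CPM after saline and 155, 135, 137, 144 and 148 after amphetamine, all amphetamine mice above all saline mice (log2 fold change 0.67 ± 0.15, adjusted p 0.035 on 10 libraries and 0.148 on 19, edgeR). Nr1d2, the repressor REV-ERB beta, read 137, 126, 144, 123 and 139.7 CPM and 178, 166, 155, 153 and 171 (0.30 ± 0.07), without overlap, and Per3, a negative arm gene, 41.1, 37.4, 45.3, 36.2 and 41.6 CPM and 41.3, 47.2, 46.1, 49.9 and 53.8 (0.24 ± 0.08). Of 20 clock genes tested 7 were higher and 2 lower at an unadjusted p under 0.05 (4.89% and 6.95% of all genes were). The 2 lower, named after their values were seen, were Arntl, which encodes BMAL1 (log2 fold change -0.31), and Nfil3, a repressor that opposes Dbp at its sites (-0.33). The hour of the day at which each mouse was killed is not given in the labels, so a difference in hour cannot be told apart from the treatment. In 5 of 17 clock genes with a RefSeq promoter an E-box (CACGTG, the same on both strands) lay in the 300 bases, against 8.09% of all genes. None of Dbp, Nr1d2 and Per3 held one there, so no clock promoter is printed.

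Among other signalling families, 26 phospholipase C and phosphoinositide genes split almost evenly, with 4 higher and 5 lower at an unadjusted p under 0.05. Over all genes 4.89% were higher and 6.95% lower at that p. Itpka, a kinase of inositol trisphosphate in projection neuron spines, read 105, 108, 88.2, 69.2 and 120.2 CPM after saline and 141, 130.3, 144, 132 and 126 after amphetamine, whereas its relative Itpkb read 54.6, 42.6, 60.6, 73.6 and 48.8 CPM and 44.2, 45.2, 31.5, 42.4 and 40.6. Of 17 cyclic nucleotide phosphodiesterases 4 were higher and 2 lower at the same p. Pde2a, which cyclic GMP activates, read 504, 505, 502, 409 and 421 CPM after saline and 505, 536, 559, 604 and 619 after amphetamine, and Pde7b, specific for cyclic AMP, 151, 141, 157, 102 and 96.6 CPM and 189, 154, 164, 184 and 191. Potassium channel genes leaned higher, with 24 of 27 above 0, where 48.4% of all genes were. At an unadjusted p under 0.05, 9 were higher and 0 lower (4.89% and 6.95% of all genes were). Their median was 0.25, and -0.02 with the tissue scores as covariates. Kcnc2, a member of this list, is also in the pallidal and septal score. Kcnq3, a subunit of the M current, was picked after its values were seen, from the genes called on the 10 control libraries. Kcnq3 rose, with 154 to 191 CPM after saline and 202 to 240.5 after amphetamine. Kcnab1, a channel beta subunit, read 241, 232, 228, 157 and 201 CPM after saline and 308, 259, 251, 319 and 349 after amphetamine, with saline mouse 4 lowest.

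Cholinergic markers were mostly lower in value without passing the test. Of 13 such markers 1 had a fold change above 0 (48.4% of all genes did). Their median of -0.27 turned to 0.22 with the tissue scores as covariates. Lhx8, a member of this list, is also in the pallidal and septal score. Of 6 dopamine neuron markers tested 3 had a fold change above 0, with a median of -0.20, which was 0.059 without saline mouse 2. Chat, the enzyme that makes acetylcholine, read 21.97, 11.1, 22.4, 24.9 and 16.9 CPM after saline and 18.9, 17.3, 9.85, 24.1 and 18.7 after amphetamine. Chrm5, a muscarinic receptor of dopamine neurons, read 2.04, 1.37, 2.67, 2.95 and 2.93 CPM and 1.52, 1.49, 0.719, 1.08 and 1.31, and Chrna5, a nicotinic subunit, 0.589, 0.433, 0.582, 0.773 and 0.743 CPM and 0.969, 1.19, 1.15, 0.759 and 0.919. Slc18a2, the vesicular monoamine transporter, did not overlap, at 6.03, 5.66, 6.07, 6.37 and 4.90 CPM after saline and 4.49, 3.61, 0.963, 3.39 and 2.81 after amphetamine, where mouse 3 was far below the rest. Th, tyrosine hydroxylase, read 6.36, 29.7, 8.999, 10.4 and 8.03 CPM and 8.39, 9.53, 15.9, 6.93 and 5.63, and Slc6a3, the dopamine transporter, 0.317, 1.57, 0.291, 0.412 and 0.615 CPM and 0.300, 0.713, 1.30, 0.786 and 0.428. In both genes saline mouse 2 was the highest of the 10. Glutamate receptor genes were mixed, with Grik5, a kainate receptor subunit, at 167 to 194 CPM after saline and 199 to 227 after amphetamine and Grik1, another, at 12.3 to 26.6 and 11.4 to 14.01.

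Saline mouse 5 had the highest level of 3 glucocorticoid-induced genes. Mt2, a metallothionein induced by glucocorticoids, read 76.1, 115, 76.9, 92.3 and 277 CPM after saline and 64.1, 70.98, 72.5, 72.7 and 81.4 after amphetamine, and saline mouse 5 was also highest for Mt1 (133, 184, 137, 140.3 and 349 CPM after saline) and Ddit4 (58.1, 65.8, 54.1, 70.9 and 115). Of 18 glucocorticoid-induced genes 3 were lower at an unadjusted p under 0.05, with a median of -0.39, and 6.95% of all genes were lower. The median was 0.045 without saline mouse 5. Fgf1, a fibroblast growth factor, was lower without overlap, at 87.4, 84.2, 95.7, 109 and 104 CPM after saline and 81.7, 76.4, 68.9, 81.6 and 81.1 after amphetamine. None of 13 mitochondrially encoded, 28 nuclear respiratory chain and 32 ribosomal protein genes had an unadjusted p under 0.05.

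Glial markers differed in direction, and none passed the test across all genes. Of 13 microglial genes 12 had a fold change above 0 (48.4% of all genes did), with a median of 0.26. At an unadjusted p under 0.05, 5 were higher, where 4.89% of all genes were. The summed microglial genes ran from 435 to 571 CPM after saline and from 578 to 642 after amphetamine. Siglech, a microglial lectin, read 16.7, 17.4, 14.7, 16.4 and 10.3 CPM after saline and 19.1, 18.5, 21.8, 21.6 and 24.1 after amphetamine, and Tmem119 19.4, 21.003, 19.4, 21.8 and 8.52 CPM and 21.8, 24.1, 23.6, 25.5 and 22.96, with saline mouse 5 the lowest in both. Of 11 astrocyte genes 5 were lower at an unadjusted p under 0.05, where 6.95% of all genes were. Their median was -0.16, and -0.06 without the 3 saline libraries that held Otp. Aldh1l1, an astrocyte enzyme, read 51.6, 61.6, 61.8, 58.96 and 77.8 CPM after saline and 50.8, 50.002, 47.5, 46.8 and 47.9 after amphetamine, and Slc1a3, a glutamate transporter, 666, 801, 696, 626 and 785 CPM and 609.6, 595, 599, 591 and 605. No marker of mature oligodendrocytes, their precursors, blood, fibroblasts or interferon response had an unadjusted p under 0.05.

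By level, genes over 100 CPM were more often higher than lower at an unadjusted p under 0.05 (259 against 112 of 2407), and genes under 1 CPM more often lower (469 against 193 of 6301). Of 16006 protein-coding genes 859 were higher (5.37%) and 1221 lower (7.63%), and of 3039 long noncoding RNAs 122 (4.01%) and 198 (6.52%). The shares over all genes were 4.89% and 6.95%, and both gene types lay near them. Gm43210, the predicted gene with the smallest p, fell on 10 libraries, with 0.193 to 0.372 CPM after saline and 0.0764 to 0.101 after amphetamine.

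The response of most genes called in control mice was smaller in value in knockout mice. Plcd4 read 26.4, 19.6, 19.9, 20.8 and 18.02 CPM in saline and 15.3, 17.4, 15.7 and 14.6 in amphetamine knockout mice, again without overlap (log2 fold change -0.41 ± 0.09, adjusted p 0.183, edgeR), and the difference of the 2 responses had a p of 0.0813 before adjustment. Stk32c read 141, 129.8, 143, 101 and 146 CPM and 137, 93.7, 141 and 159 there, with a log2 fold change of 0.00 ± 0.12. Of the 48 genes that rose in control mice 36 had the same direction in knockout mice, and of the 27 that fell 18 did, against 52.4% of all genes tested. Median log2 fold changes of the 48 were 0.49 in control and 0.11 in knockout mice, and of the 27 they were -0.54 and -0.07; the genes were chosen on the control values. Lists differed in whether they kept their direction in knockout mice. Medians above 0 in control mice were -0.22 there for dopamine receptors and transduction, -0.17 for projection neuron identity and -0.09 for microglial genes. For direct and indirect pathway markers they were -0.38 and -0.27. Medians of potassium channel (0.16), ependymal (-0.19), and pallidal and septal genes (-0.14) kept the control direction. Ppp1r1b read 791, 775, 1191, 456 and 831 CPM after saline and 781, 579, 288 and 943 after amphetamine in knockout mice, with amphetamine knockout 3 lowest. In the test of the difference itself, 0 of 21513 genes (0%) passed at an adjusted p under 0.05 in edgeR, 1991 (9.25%) had an unadjusted p under 0.05, and DESeq2 called 14.

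**Figure D5:**
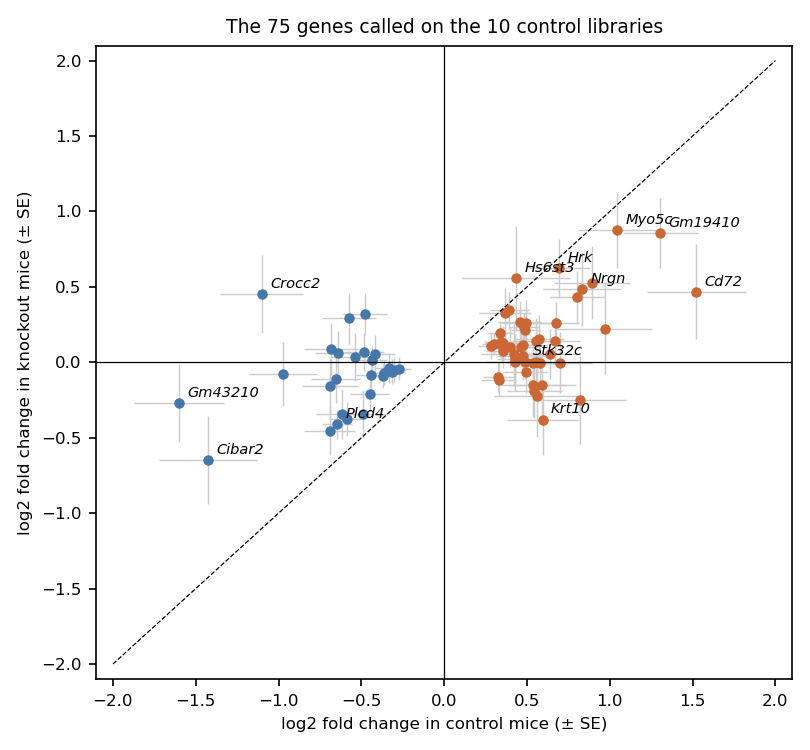
Log2 fold change in control mice (x axis) against that in knockout mice (y axis) for the 75 genes called on the 10 control libraries, both from the fit on 19 libraries, with SE bars and the line of equal response dashed. Most points lie between the x axis and the dashed line, with Crocc2, Krt10 and some others across the x axis.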

How the data were processed

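Striatal RNA from 10 control mice, out of 19 in the series, was analysed from the whole-number gene counts the authors deposited, which are in build GRCm39. Per the submitters' processing notes the tools were STAR 2.6.0c, HTSeq 0.6.1p2, Trim Galore 0.5.0, R 3.6.1, DESeq2 1.26.0s and FastQC 0.11.5. No source used here gives the strand setting, the annotation release or the handling of reads that match more than 1 gene. How reads of overlapping, antisense and near-identical genes were assigned is therefore not known. The authors' deposited comparison table also holds FPKM values per mouse, log2 fold changes, p-values and a normalized signal averaged over samples. Gene names and coordinates come from it and from a reference table.

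Counts of 49592 genes were filtered with filterByExpr, leaving 21513. They were scaled by TMM and fitted in edgeR 4.0.16 (R 4.3.3; robust quasi-likelihood) as 4 group means over 19 libraries, which share one spread. P-values were adjusted by Benjamini-Hochberg and called under 0.05. The SE is the fold change over the root of F. A second fit used the 10 control libraries only. Alternatives were other scalings and filters, DESeq2 1.42.0, limma voom 3.58.1, a replicate block, left-out libraries and tissue scores as covariates. The hypothalamic score, the fit without the Otp libraries and all alternatives of the 10-library fit were chosen after seeing the data.

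Named genes were all called genes, the 14 per direction with the smallest p and a mean of at least 1 CPM, up to 3 of smallest p per list, 15 genes of striatal signalling and 2 predicted genes per direction; the text describes a subset, and says where other genes were picked. A few named genes are not reported here. The 42 lists (681 members, 678 tested) and the members were chosen with earlier results of these data known. Each mouse is a separate animal per the labels. The chi-square over genes per degree of freedom was 11.2 or more between control libraries, so none was a copy.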

Additional observations from a re-analysis of the deposited data

Results flagged for a closer look

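In a group of 5 mice, 1 mouse stood apart from the other 4 in 12 of 256 groups of named genes checked, by its gap to the nearest mouse over the group's whole range; chance alone gives about 5% of groups. In saline mice the values were 349 CPM for Mt1, 277 CPM for Mt2 and 115 CPM for Ddit4 (all saline mouse 5, high), 8.52 CPM for Tmem119 (saline mouse 5, low), and 1.57 CPM for Slc6a3, 29.7 CPM for Th and 19.6 CPM for Cd24a (all saline mouse 2, high). In amphetamine mice they were 37.9 CPM for Coch and 510.4 CPM for Prkcb (both mouse 5, high), 14.6 CPM for Npas4 (mouse 1, low), 485 CPM for Scg2 (mouse 1, high), and 0.443 CPM for Tmem212 (mouse 3, low).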

How the results depend on the processing

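The count of called genes, 1 on 19 libraries, was 75 on the 10 control libraries, 214 with DESeq2, and 0 with the replicate block on those 10 (2639 genes at an unadjusted p under 0.05), without amphetamine control 3 and saline control 5 together, with the 3 tissue scores or the hypothalamic score as covariates, and without the 3 saline libraries that held Otp. Leaving out 1 mouse gave 0 to 4. On the 10 control libraries the count ran from 4 to 392 with 1 mouse left out, was 5 without the Otp libraries and 0 with the tissue scores. The difference between genotypes gave 0 calls, and 14 with DESeq2. The cause of these changes was not tested. The labels do not say whether the mouse numbers shared by the groups pair the samples. Correlations of deviations between same-numbered mice ran from -0.193 to 0.0598. No saline mouse correlated best with the amphetamine mouse of its own number. These correlations cannot show whether same-numbered mice shared a batch.

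Directions turned as follows. Npas4 was 0.053 with the block, 0.000908 with no filter and 0.073 with voom. Without amphetamine control 3 and saline control 5, Fos was -0.063 and Slc6a3 -0.21. With tissue scores Fos was -0.13, Egr1 -0.067, Arc -0.17, Kcnh3 -0.00214, Chat 0.42, Ache 0.048, Ecel1 0.024, Slc6a3 -0.12 and Tbr1 -0.13. With the hypothalamic score Fos was -0.13, Egr1 -0.00559, Arc -0.12, Chat 0.10 and Slc6a3 -0.36. Without the Otp libraries Fos was -0.19, Egr1 -0.042, Arc -0.27, Chat 0.10, Ache 0.019, Slc6a3 -0.42 and Otp 1.36. With 1 mouse left out Npas4 ran from -0.14 to 0.23, Slc6a3 from -0.20 to 0.79, Th from -0.74 to 0.14, Fos from -0.073 to 0.17 and Chat from -0.27 to 0.016.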
